A study of Mus musculus with 95 samples.

Results

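The genes described here make and load the class I molecules of the major histocompatibility complex (MHC), called H2 in the mouse. They are 10 of the 20638 genes in the deposited count table, picked by symbol: H2-K1, H2-D1, B2m, Tap1, Tap2, Tapbp, Psmb8, Psmb9, Psmb10 and Nlrc5. The libraries came from pancreatic islets of founder strain mice of the Diversity Outbred (DO) stock on a high-fat, high-sugar diet, which the labels give as 45% fat for each of the 95. The labels state neither the strain nor the sex of any library, so all 95 were left without a group. Libraries are called by the number in their label. Libraries 91 to 100, a run of 10 with high counts of immune cell genes, are set beside the other 85 as a description with no test. The run was known from earlier results of these data, and nothing in the labels marks it.

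A class I molecule carries short peptides from inside the cell to its surface, where CD8 T cells read them. The heavy chain is encoded by H2-K1 or H2-D1 and the light chain, beta-2-microglobulin, by B2m. Psmb8, Psmb9 and Psmb10 encode the catalytic subunits of the immunoproteasome, which take the places of Psmb5, Psmb6 and Psmb7 and cut proteins into peptides that fit the groove. Tap1 and Tap2 form the pump that moves peptides into the endoplasmic reticulum, and Tapbp encodes tapasin, which bridges the pump and the waiting heavy chain. Nlrc5 is a transactivator of the class I genes. Interferons raise most of these genes, in part through IRF1. In islets, raised class I on beta cells is a known feature of autoimmune diabetes. Heavy chain genes are highly polymorphic, and each inbred strain carries a fixed set of alleles, its H2 haplotype.

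Total estimated counts per library ran from 16411809 to 34357253. Levels are given as CPM (a gene's counts relative to the size of its library, corrected with TMM factors) and, on the log2 scale, with a prior count of 2. The tissue label was checked against islet genes: summed CPM of 6 endocrine hormone genes ran from 125268 to 259929 in the other 85 libraries and from 69407 to 201770 in libraries 91 to 100. Acinar genes, from the surrounding exocrine pancreas, were present in every library, at a summed CPM of 1109 to 448559 for 6 genes outside libraries 91 to 100. No label says that libraries came from separate animals.

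Promoter stretches are shown first, since the heavy chain genes H2-K1 and H2-D1 are near copies of each other, and Tap1 and Psmb9 lie head to head. RefSeq windows on GRCm38.p6 (250 bases before a transcript start to 50 after it) were found for 8 of the 10 genes. H2-K1 and H2-D1 had the same base at 166 of 190 aligned positions upstream of their starts (87.4%). The RefSeq starts of Tap1 and Psmb9 lie 226 bases apart, so 1 stretch serves both. In the authors' coordinates Psmb9 reaches 34187764, past the Tap1 start at 34187553, so the genes overlap there. Capitals mark exact matches on both strands to CCAAT (reverse complement ATTGG) or to an interferon-response type motif (GAAA, any 2 bases, GAAA). The stretches end just before the start (the first of 2 listed for H2-K1), except the one between Tap1 and Psmb9, which is printed in the direction of Tap1.
H2-K1 (chr17:34000348-34000547, minus strand): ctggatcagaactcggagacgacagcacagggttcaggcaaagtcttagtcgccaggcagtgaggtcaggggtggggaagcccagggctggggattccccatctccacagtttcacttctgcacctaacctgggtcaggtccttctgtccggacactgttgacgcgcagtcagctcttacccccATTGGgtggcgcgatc
H2-D1 (chr17:35262894-35263093, plus strand): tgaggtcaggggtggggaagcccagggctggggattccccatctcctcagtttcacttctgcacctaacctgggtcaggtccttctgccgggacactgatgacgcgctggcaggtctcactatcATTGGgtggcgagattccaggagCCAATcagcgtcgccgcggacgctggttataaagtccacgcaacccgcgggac
B2m (chr2:122147527-122147686, plus strand): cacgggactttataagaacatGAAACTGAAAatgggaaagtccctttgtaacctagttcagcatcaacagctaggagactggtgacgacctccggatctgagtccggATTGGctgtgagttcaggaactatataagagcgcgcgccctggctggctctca
Tap1 and Psmb9 (chr17:34187331-34187555, plus strand): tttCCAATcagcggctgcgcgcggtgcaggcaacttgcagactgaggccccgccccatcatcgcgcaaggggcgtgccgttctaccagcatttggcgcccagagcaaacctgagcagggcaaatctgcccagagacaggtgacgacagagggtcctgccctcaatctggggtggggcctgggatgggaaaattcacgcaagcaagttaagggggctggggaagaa

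Among these windows an exact match to the interferon-response type motif was found in that of B2m, at position -139. Near matches were not searched for, so the other windows are not shown to lack such a motif. Of 32851 mouse windows of the same length, 3.44% hold the exact motif and 37.4% hold CCAAT on either strand. Another pattern (TTC, any 3 bases, GAA) was found in the window of Psmb8, at position -97, and in 8.3% of mouse windows. CCAAT was found in the windows of H2-K1, H2-D1, B2m, Tap1, Tapbp and Psmb9, and not in those of Psmb8 and Psmb10. These letters are a description of the reference sequence, and binding was not measured.

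The genes differed widely in level. Per kilobase of exon, the median level was highest for H2-D1 (78.1 CPM per kb), B2m (77.4) and H2-K1 (71.6). The order of those 3 did not hold from library to library: H2-D1 stood above B2m in 32 of 95 libraries, and B2m above H2-K1 in 53. Tapbp followed at 36.8 CPM per kb, below H2-K1 in 92 libraries. Tap2 had a median of 11.5 CPM per kb and Psmb10 one of 7.46. Lower still were Tap1 at 2.67, Psmb8 at 2.59 and Psmb9 at 1.97 CPM per kb, and Tap1 was above Psmb8 in 41 of 95 libraries. Nlrc5 was lowest in all 95 libraries, with a median of 0.143 CPM per kb. Together the 10 genes took a median of 0.0716% of all counts in the other 85 libraries and 0.299% in libraries 91 to 100.

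**Figure D1:**
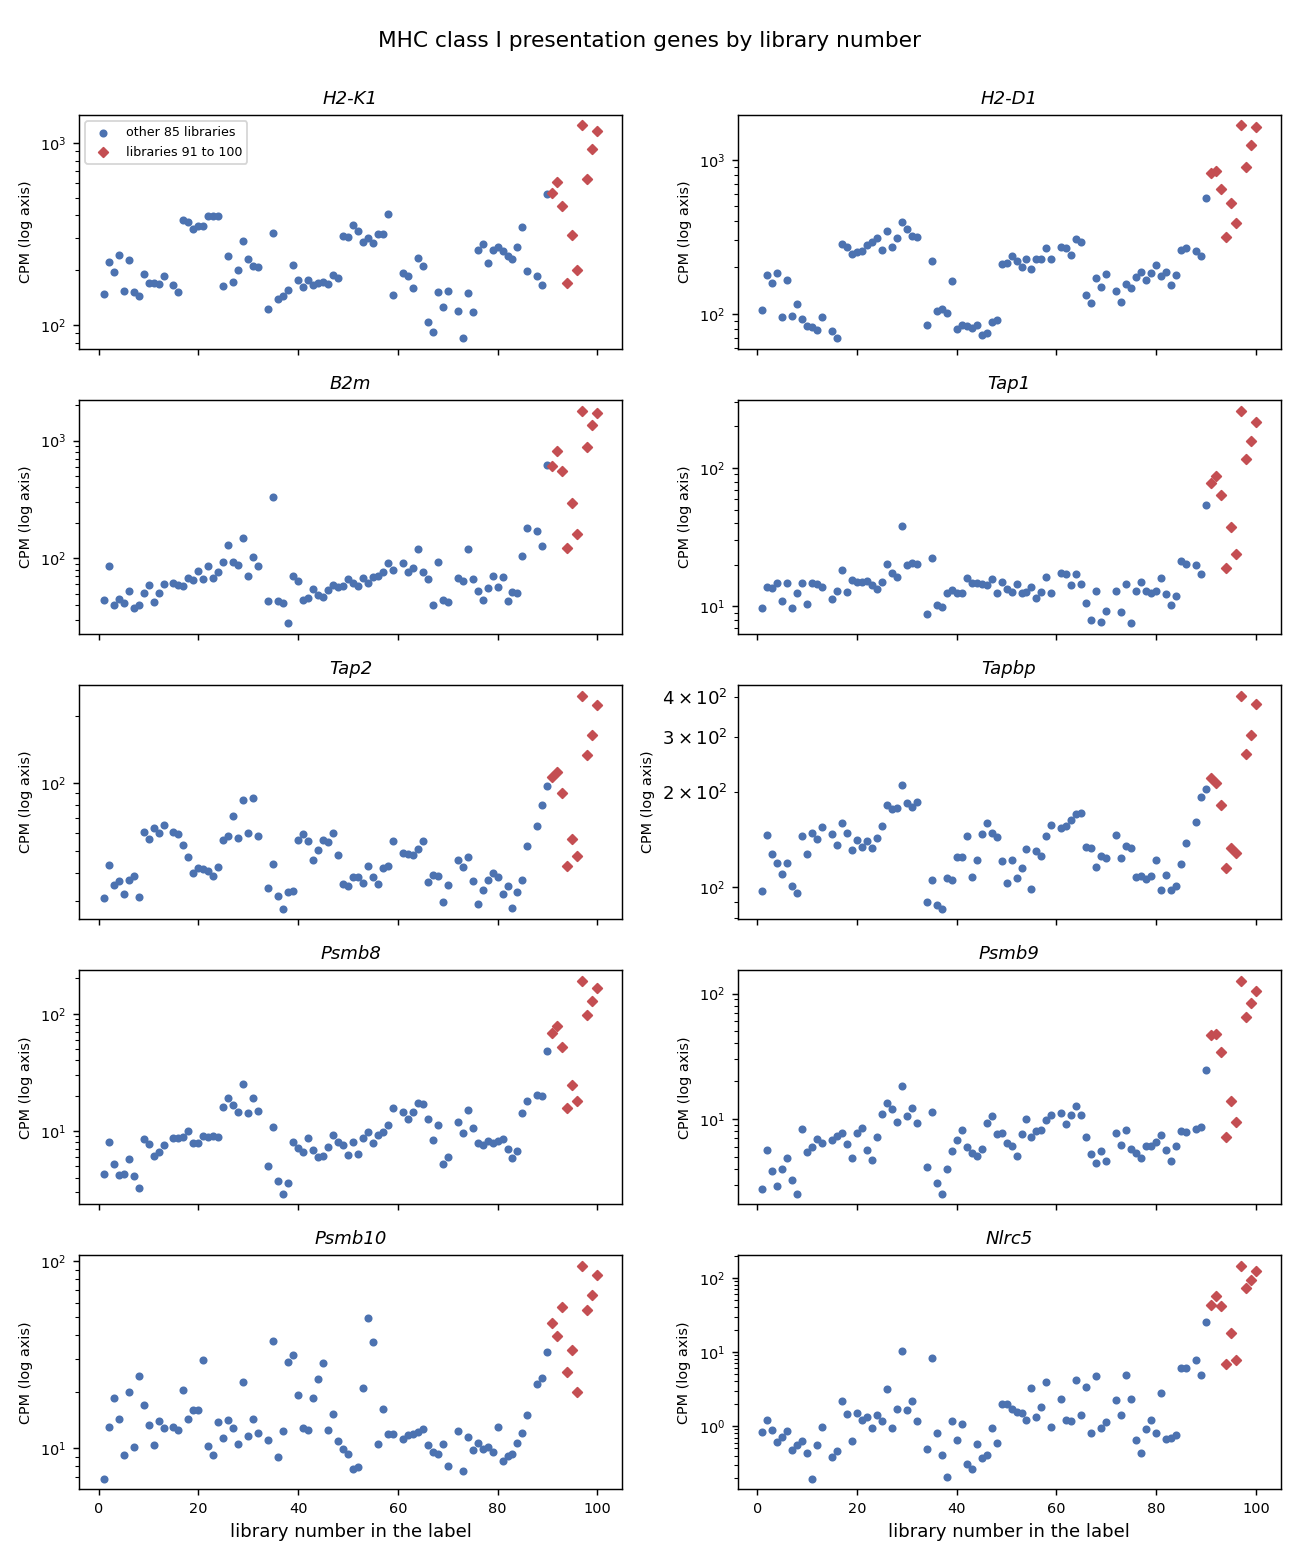
CPM of the 10 genes (log axis) in each of the 95 libraries, in order of library number, with libraries 91 to 100 as red diamonds and the others as blue points. Libraries 97 and 100 hold the highest levels of the run, and library 90, just before it, stands above libraries 86 to 89.

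The heavy chain gene H2-K1 (ENSMUSG00000061232, chr17:33996017-34000333 on GRCm38) had a lowest level of 84.6 CPM, a median of 210 and a highest of 1247. H2-D1 (ENSMUSG00000073411, chr17:35262730-35267499) ran from 69.4 CPM through a median of 201 to 1670. Both peaked in library 97. Without libraries 91 to 100 the highest values were 523 CPM for H2-K1 and 567 for H2-D1, each in library 90. The genes share sequence: 11.1% of the 31-base words in H2-K1 transcripts also occur in H2-D1, and 13.8% of those of H2-D1 in H2-K1. Counting words found in any other gene, the shares were 22.8% for H2-K1 and 26.9% for H2-D1. Part of their reads could therefore have been split between them or with other genes. How the authors' counting dealt with alleles that differ from the reference is not given in the sources used here.

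The ratio of H2-K1 to H2-D1 moved in blocks of library numbers. H2-K1 exceeded H2-D1 in 58 libraries and fell short of it in 37, with ratios from 0.514 to 2.36. The ratio was above 1 in libraries 1 to 24 (1.23 to 2.20), 34 to 58 (1.31 to 2.36) and 76 to 85 (1.29 to 1.52). It was below 1 in libraries 25 to 32 (0.628 to 0.735), 59 to 75 (0.649 to 0.963) and 86 to 100 (0.514 to 0.922). The blocks were drawn after the ratios were seen.

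Smaller stretches appeared inside the blocks. In libraries 9 to 16 the ratio had a median of 2.09, with H2-D1 at 69.4 to 95.2 CPM and H2-K1 at 152 to 191. Libraries 40 to 48 were close to these, with a median ratio of 2.12, H2-D1 at 73.2 to 91.0 CPM and H2-K1 at 161 to 189. H2-D1 was low in both stretches, and its ranges there overlapped. In libraries 17 to 24 H2-K1 was at 335 to 398 CPM and H2-D1 at 246 to 311, so both were high while their ratio (median 1.36) was like that of libraries 1 to 7 (1.37). Libraries 49 to 58 held H2-K1 at 284 to 409 CPM and H2-D1 at 197 to 269. In libraries 25 to 32 the order was turned round, with H2-D1 at 261 to 396 CPM and H2-K1 at 165 to 291.

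Neighbouring library numbers were therefore alike. The median difference in the log2 ratio between neighbours was 0.11, which was 0.166 times the median difference over all pairs of libraries. Of the 15841 genes that passed the low-count filter, 0.303% had a lower value of this measure, and the median gene had 0.598. Those genes were taken singly, and no background of ratios between genes was made, so this is not a like-for-like rank. For H2-D1 alone the measure was 0.225 and for H2-K1 0.345, with 0.827% and 5.38% of genes lower. B2m (0.421), Tap2 (0.406) and Psmb8 (0.371) came next, and Tap1 (0.633) was above the median gene. Without strain labels, strain, litter and order of preparation cannot be told apart.

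**Figure D2:**
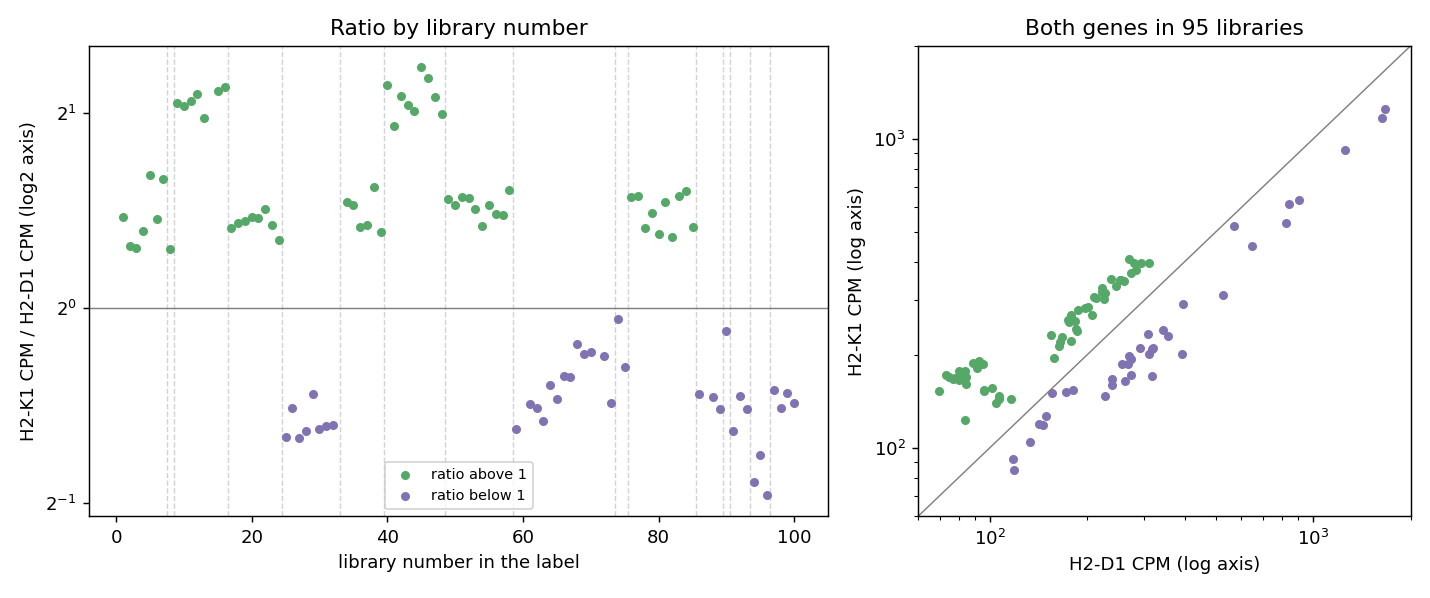
H2-K1 to H2-D1 ratio by library number (log2 axis, dashed lines between stretches), and H2-K1 against H2-D1 in CPM on log axes with the line of equal levels, 1 point per library (green above a ratio of 1, purple below). The ratio moves between levels above and below 1 in blocks of neighbouring numbers, from 0.514 to 2.36.

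The light chain gene B2m (ENSMUSG00000060802, chr2:122147686-122153083) varied more than its partners. Its level ran from 27.9 CPM in library 38 through a median of 66.5 to 1797 in library 97. In libraries 91 to 100 the median was 715 CPM against 64.1 in the others, 11.2-fold. B2m per kilobase stood at 0.555 times the sum of H2-K1 and H2-D1 per kilobase in the median of the other libraries, and at 1.69 times in libraries 91 to 100. Library 35, outside the run, reached 1.96, and 1 library of the run exceeded it.

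Spread over all 95 libraries was measured with edgeR as a coefficient of variation beyond counting noise, from the dispersion of each gene. It was above 50% for 3834 of 15841 genes (24.2%) and for 8 of the 10 genes here, with Nlrc5 at 154% and B2m at 104% the widest and Tap2 (46.1%) and Tapbp (29.7%) below. Without libraries 91 to 100 it was above 50% for 21.1% of genes and for 2 of the 10, B2m at 54.0% and Nlrc5 at 93.7%. Differences of strain, sex, litter and handling all enter it.

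The peptide pump and tapasin differed in range. Tap1 (ENSMUSG00000037321, chr17:34187553-34197225) was at 7.54 CPM in its lowest library, 14.6 in the median and 261 in the highest. Tap2 (ENSMUSG00000024339, chr17:34203527-34216321), its partner in the same pump, ran from 27.6 through 43.5 to 246 CPM. Outside libraries 91 to 100 Tap2 was read in the stretches drawn from the H2-K1 to H2-D1 ratio, and it differed between them. Tap2 was at 56.5 to 64.9 CPM in libraries 9 to 16 and 45.5 to 59.7 in libraries 40 to 48. It was at 30.9 to 43.3 CPM in libraries 1 to 7 and 27.6 to 43.5 in libraries 34 to 39. Libraries 25 to 32, where H2-D1 was high, held Tap2 at 56.0 to 85.9 CPM, so high Tap2 was found beside both low and high H2-D1. Tapbp (ENSMUSG00000024308, chr17:33915899-33929288) had the narrowest range, from 85.7 through 134 to 404 CPM.

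The immunoproteasome subunits were low in most libraries. Psmb8 (ENSMUSG00000024338, chr17:34197721-34201454) ran from 2.91 CPM through a median of 8.77 to 191. Psmb9 (ENSMUSG00000096727, chr17:34181988-34187764) ran from 2.54 through 7.23 to 126 CPM, and Psmb10 (ENSMUSG00000031897, chr8:105935728-105938392) from 6.85 through 12.7 to 94.1. Set against the standard subunit that each replaces, per kilobase, the median ratio in the other 85 libraries was 0.0664 for Psmb8 to Psmb5, 0.0851 for Psmb9 to Psmb6 and 0.567 for Psmb10 to Psmb7. In libraries 91 to 100 the medians were 0.515, 0.501 and 2.13. Per kilobase, the ratio passed 1 in 2 libraries for Psmb8 and for Psmb9, and in 22 for Psmb10. These ratios depend on the gene lengths used, which count each base in an exon of any transcript. On CPM without lengths, median log2 ratios over 95 libraries were -1.93 (Psmb8 to Psmb5), -2.53 (Psmb9 to Psmb6) and -1.79 (Psmb10 to Psmb7). The gap between Psmb10 and Psmb8 was smaller on that scale. The standard subunits themselves had medians in libraries 91 to 100 that were 1.05-fold (Psmb5), 1.11-fold (Psmb6) and 1.16-fold (Psmb7) those of the others.

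Nlrc5 (ENSMUSG00000074151, chr8:94472763-94527272) had the widest range. Its lowest library, library 11, held 5 counts, or 0.194 CPM (95% exact Poisson interval 0.0631 to 0.454, counting error only). The median was 1.21 CPM and the highest 145, and 46 of the 85 other libraries reached 1 CPM. Values at the low end rest on few reads.

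All 10 genes passed the low-count filter, and in libraries 91 to 100 every one of them had a higher median than in the others. The median was at least 2-fold higher for 9 of the 10, against 12.5% of all 15841 genes tested, and at least 2-fold lower for 0, against 2.77%. Nlrc5 differed most, from 1.16 to 49.7 CPM (42.9-fold), followed by B2m, Psmb8 from 8.52 to 73.5 (8.62-fold), Psmb9 from 6.76 to 47.0 (6.96-fold) and Tap1 from 13.9 to 82.9 (5.95-fold). H2-D1 went from 183 to 833 CPM (4.54-fold), Psmb10 from 12.3 to 50.8 (4.12-fold), H2-K1 from 198 to 573 (2.89-fold) and Tap2 from 42.5 to 109 (2.57-fold). Tapbp was the gene under 2-fold, from 133 to 217 CPM (1.64-fold). The median log2 difference over the 10 was 2.37, and over all tested genes -0.01.

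The run was not uniform, and its libraries overlapped the others. None of the 10 genes was higher in every library of the run than in every other library, which 0.12% of genes were. All 10 were higher in at least 5 of the 10 libraries than in every other, as were 9.01% of genes. Libraries 94, 95 and 96 lay lowest: B2m was at 121, 297 and 160 CPM there, Nlrc5 at 6.86, 17.7 and 7.81, and Tapbp at 115, 133 and 129. Libraries 97, 99 and 100 lay highest, with B2m at 1797, 1362 and 1725 CPM and Nlrc5 at 145, 92.6 and 122. Library 97 was the highest of all 95 for each of the 10 genes.

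**Figure D3:**
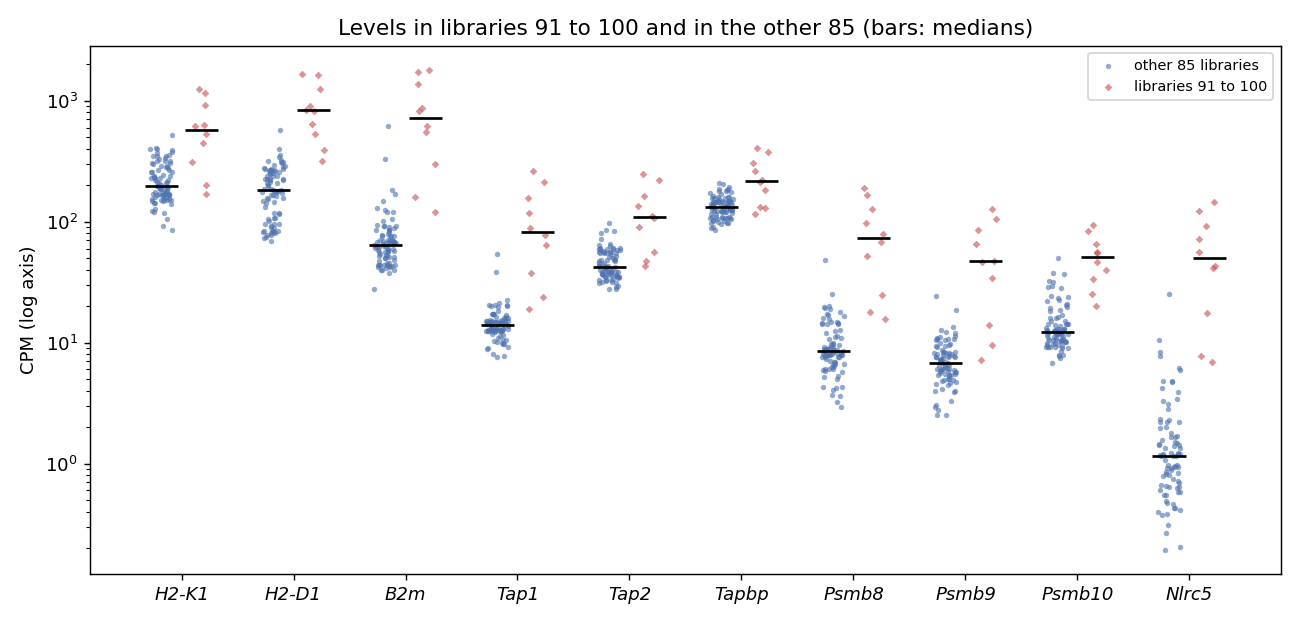
CPM of each gene (log axis) in the other 85 libraries (blue) and in libraries 91 to 100 (red), with bars at the medians. The sets overlap for all 10 genes, most for Tapbp, while the medians of Nlrc5 differ 42.9-fold.

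Markers of immune cells moved with these values. Ptprc, which encodes the leukocyte antigen CD45, had a median of 4.93 CPM in the other libraries and 142 in libraries 91 to 100, and 8 of the 10 exceeded every other library. It was at 13.9, 46.2 and 23.7 CPM in libraries 94, 95 and 96 and at 536 in library 97. Summed CPM of 6 T cell genes ran from 0.0322 to 29.9 in the others and from 5.23 to 478 in the run, and all 6 had a median at least 2-fold higher. Among them Cd3e was at 0 in 21 libraries and Cd3d in 24. For 4 B cell genes the sums ran from 1.88 to 72.6 and from 10.5 to 633, and for 6 macrophage genes from 34.3 to 279 and from 87.1 to 2008. Sums of 4 endothelial genes had medians of 442 and 409 CPM, and of 4 duct genes 268 and 241, although 2 of these, Sox9 (2.37-fold) and Spp1 (2.27-fold), had a median at least 2-fold higher. Other tissue signals differed too: the median sums were 28460 and 80159 CPM for 6 acinar genes, 92.1 and 360 for 4 fibroblast genes, and 0.0869 and 9.46 for 2 cytotoxic cell genes. Those of 6 hormone genes were 192144 and 147828 CPM, and those of 4 other endocrine genes 11532 and 5896. The part of these cells and signals in the class I levels was not tested, and in RNA from whole islets more cells of a type and more RNA per cell cannot be told apart.

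**Figure D4:**
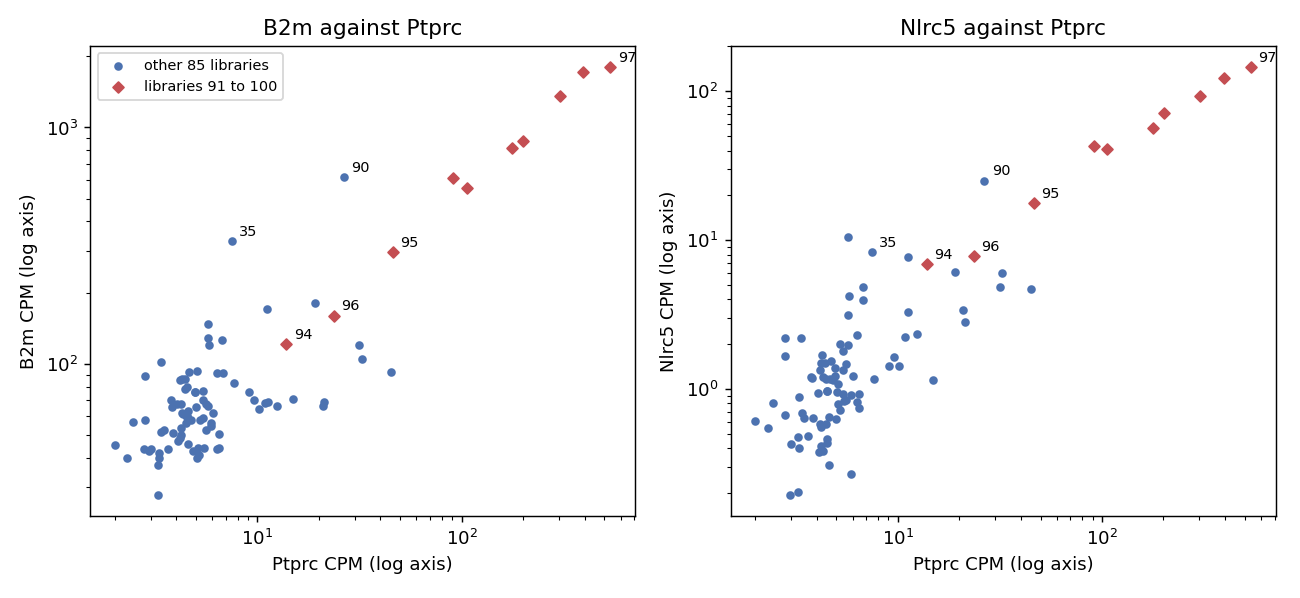
CPM of B2m and of Nlrc5 against CPM of Ptprc, a leukocyte gene, on log axes, 1 point per library, with libraries 91 to 100 in red. Within the run the points lie along a rising band, from library 94 (13.9 CPM of Ptprc) to library 97 (536).

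Some libraries outside the run were also high, and 3 of them were picked out after their values were seen. Library 90 was the highest of the 85 for 8 of the 10 genes, with B2m at 616 CPM, Psmb8 at 48.2, Tap1 at 54.3 and Nlrc5 at 25.1. Its Ptprc was at 26.6 CPM (rank 4 of the 85), above the 13.9 and 23.7 of libraries 94 and 96, and its Cd3e was at 0.488. Its sum of T cell genes was 4.62 CPM, at rank 6, against a median of 0.685 in the 85. Library 90 was also the highest of the 85 in the sums of macrophage genes (279 CPM), cytotoxic cell genes (2.93), duct genes (1181) and fibroblast genes (564). For B cell genes it was at rank 80. Most of its duct sum was Spp1 (906 CPM). Sox9 (21.0 CPM) was also highest of the 85 there, while Krt19 was highest in library 32 and Krt7 in library 61. The part of these signals in the class I levels of library 90 was not tested. Library 29 was first for Tapbp (211 CPM) and at rank 2 for H2-D1, Tap1, Psmb8, Psmb9 and Nlrc5 (10.4 CPM), with Ptprc at 5.70 CPM, near the median. Library 35 was uneven across the pathway. It was at rank 2 for B2m (329 CPM) and Psmb10 (37.4, rank 4 with plain library totals) and at rank 3 for Nlrc5 (8.31), yet at rank 39 of 85 for Tap2 (43.5) and rank 74 for Tapbp (105), with Ptprc at 7.48 CPM and Cd3e at 0.0594.

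Relations between the genes were computed over the 85 libraries outside the run on log2 CPM, as Spearman's rho and Pearson's r with two-sided permutation tests of 100000 resamples, adjusted by Benjamini-Hochberg over 105 relations. Neighbouring libraries are alike, so these p-values are too small. Of the 45 pairs among the 10 genes, 35 were positive past an adjusted p of 0.05 for rho and 0 were negative. Of all pairs of tested genes, 16.9% were positive and 16.8% negative at a rho as large as the smallest that passed (0.253). The median rho of the 45 was 0.53. H2-K1 with H2-D1 had a rho of 0.618 (r = 0.627, and 0.601 without libraries 73 and 90, adjusted permutation p = 3.18e-05 and 2.84e-05). It was 0.660 in libraries 1 to 50 and 0.514 in libraries 51 to 90.

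B2m and Psmb8, the light chain and a peptide-cutting subunit, had the highest rho, 0.873 (r = 0.835), with adjusted permutation p-values of 3.18e-05 and 2.84e-05, from a raw p of 1e-05, the smallest that the resamples can give. Without libraries 35 and 90, the farthest from the median of B2m, r was 0.876. Tap2 with Tapbp had a rho of 0.831 (r = 0.838, and 0.823 without libraries 31 and 90). B2m with Nlrc5 had a rho of 0.789 (r = 0.841, and 0.808 without libraries 35 and 90). All of these had the same adjusted permutation p-values, and held in both libraries 1 to 50 (n = 48) and libraries 51 to 90 (n = 37). There rho was 0.881 and 0.867 for B2m with Psmb8, 0.808 and 0.821 for Tap2 with Tapbp, and 0.719 and 0.824 for B2m with Nlrc5.

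The heavy chain H2-K1 passed the threshold with 5 of the 9 other genes: H2-D1, Tap1 (rho 0.482), B2m, Nlrc5 and Psmb9. H2-K1 with Tap2 had a rho of -0.01 (r = 0.01, and -0.08 without libraries 73 and 90), with adjusted permutation p-values of 0.985 and 0.924. With B2m it had a rho of 0.358 (adjusted permutation p = 0.0019) and an r of 0.373 (adjusted permutation p = 0.001), or 0.293 without libraries 73 and 90. That rho was 0.631 in libraries 1 to 50 and 0.0702 in libraries 51 to 90, so it did not hold in the second set. H2-D1 with B2m had a rho of 0.701 (r = 0.640, and 0.617 without libraries 16 and 90, adjusted permutation p = 3.18e-05 and 2.84e-05), with 0.630 and 0.635 in the same sets.

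Psmb10 was related to the other immunoproteasome genes in part of the libraries. With Psmb9 it had a rho of 0.295 (adjusted permutation p = 0.0125) and an r of 0.259 (adjusted permutation p = 0.0307), or 0.163 without libraries 29 and 90. With Psmb8 it had a rho of 0.160 (r = 0.153, and 0.0345 without libraries 29 and 90), with adjusted permutation p-values of 0.206 and 0.21. These rho values were 0.109 and 0.0647 in libraries 1 to 50, and 0.689 and 0.585 in libraries 51 to 90. With the transactivator Nlrc5, Psmb10 had a rho of 0.0331 (r = 0.179, and 0.132 without libraries 35 and 54, adjusted permutation p = 0.834 and 0.15), which was 0.0258 in libraries 1 to 50 and 0.399 in libraries 51 to 90. With the share of counts in acinar genes it had a rho of 0.574 (r = 0.570, and 0.534 without libraries 35 and 54, adjusted permutation p = 3.18e-05 and 2.84e-05), 0.708 in libraries 1 to 50 and 0.323 in libraries 51 to 90. Its highest library outside the run, library 54, at 49.6 CPM, was also the one with the highest summed acinar level and the lowest TMM factor (0.46). With plain library totals library 54 was at 22.8 CPM, rank 5 of the 85, and library 90 was first at 33.3. The rho with the acinar share was then 0.358 (adjusted permutation p = 0.00111), a scaling tried after the data were seen. Of the 10 genes, Psmb10 alone was positive past the threshold with the acinar share and 6 were negative, or 9 with plain totals. With TMM factors, 16.9% of all tested genes were positive and 18% negative at a rho of that size (0.253 or more). No such share was computed with plain totals, so the 9 cannot be set against the 18%. What part the acinar RNA had in the Psmb10 level was not tested.

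Nlrc5 was tied to Ptprc (rho 0.618, r = 0.663, and 0.653 without libraries 29 and 90), with adjusted permutation p-values of 3.18e-05 and 2.84e-05. The rho was 0.338 in libraries 1 to 50 and 0.763 in libraries 51 to 90. Irf1 was positive past the threshold with 5 of the 10 genes, Ptprc with 4 and Cd3e with 3, and none of the 10 was negative past it. At a rho of that size 21%, 10.4% and 12.4% of all tested genes were positive with Irf1, Ptprc and Cd3e, and 24.1%, 9.63% and 11.2% negative. Within libraries 91 to 100 all 45 pairs had a rho of at least 0.903, and 28 of them had a rho of 1, so the genes ranked these libraries in nearly 1 order. Ptprc had a rho of 0.927 or more with each of the 10 there. Irf1 had a negative rho with all 10, from -0.41 to -0.35, and 0 of these passed the threshold. The acinar share had a rho of -0.70 to -0.39 with the 10 genes, and 8 of these passed. Those 8 genes ranked the 10 libraries alike and had the same rho of -0.70, so they are not 8 separate results. Shares over all genes or all pairs were not computed within libraries 91 to 100.

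**Figure D5:**
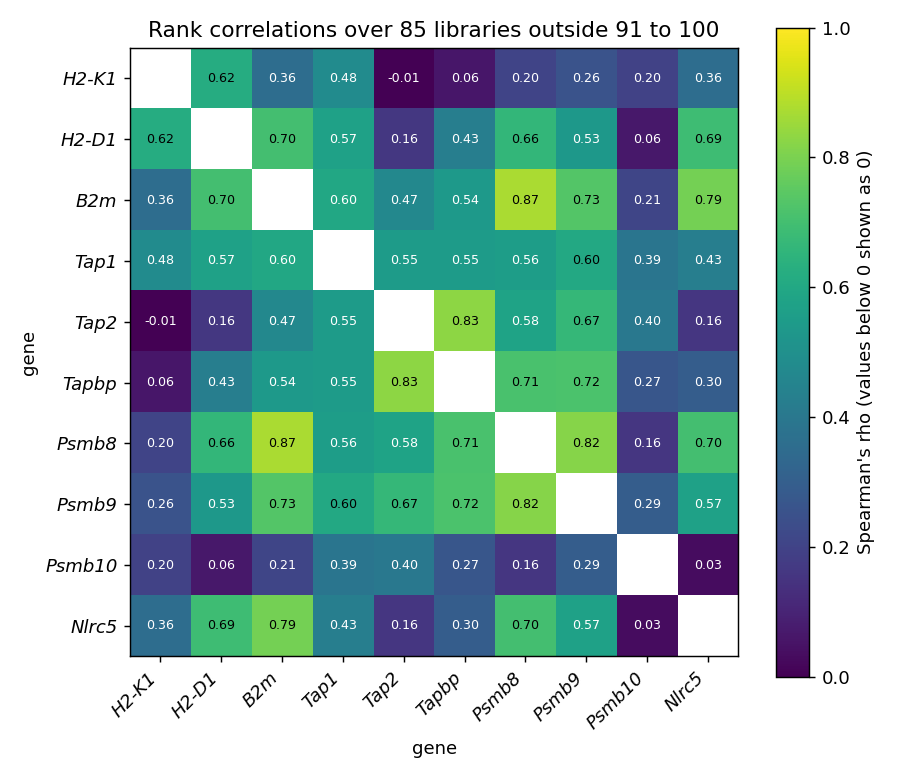
Spearman's rho between each pair of the 10 genes over the 85 libraries outside 91 to 100, on log2 CPM. B2m with Psmb8 has the highest value (0.873), and the cells of H2-K1 with Tap2 and of Psmb10 with Nlrc5 are near 0.

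The genes most alike to each, by rho over the same 85 libraries among all tested genes, are a description. For H2-K1 the first was Pon3 (0.783), and for H2-D1 it was 1810062G17Rik (0.869), both outside chromosome 17. Gbp4 was first for Psmb8 (0.781) and second for B2m (0.770), after Plbd1 (0.772). Irgm1 was first for Tap1 (0.774), Psme2 for Psmb9 (0.804), Ifi27 for Psmb10 (0.788) and Gbp6 for Nlrc5 (0.798). Met was first for Tap2 (0.818). Abhd16a, a gene at chr17:35089263-35102987, was first for Tapbp (0.846) and second for Tap2 (0.790).

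Other genes of the pathway, from lists of 39, were read the same way in libraries 91 to 100. Of 6 that supply peptides, 2 had a median at least 2-fold higher: Psme1 (2.50-fold) and Psme2 (2.16-fold), which encode the proteasome activator PA28. The peptidase gene Erap1 was at 1.19-fold. Of 4 general loading factors 0 passed 2-fold, among them calreticulin (Calr, 1.09-fold), calnexin (Canx, 0.866-fold) and Pdia3 (0.976-fold). Of 13 genes for interferon signalling and control, 12 were in the table and 6 were at least 2-fold higher. Ciita, the class II transactivator, went from 1.31 to 38.4 CPM (29.2-fold), and Cd274, which encodes PD-L1, from 15.6 to 62.4 (3.99-fold). Irf1 was at 1.61-fold, and Rfx5, a subunit of the complex that Nlrc5 acts through, at 1.16-fold.

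Of 16 other class I heavy chain genes, 15 passed the filter, 12 had a median at least 2-fold higher and 1 at least 2-fold lower. Their median log2 difference was 2.11. H2-Q6 went from 3.96 to 114 CPM (28.8-fold) and H2-T23, which encodes Qa-1, from 27.7 to 80.1 (2.89-fold). For H2-Q2 and H2-M2 every library of the run was above every other: H2-Q2 was at 80.0 to 132 CPM against at most 77.6. H2-T22 went the other way, from a median of 23.6 to one of 1.60 CPM, while its near copy H2-T10 went from 2.23 to 39.9. As 67.4% of the 31-base words of H2-T22 occur in other genes, 64.2% of those of H2-T10, 51.8% of those of H2-Q6 and 32.8% of those of H2-Q2, their levels are uncertain.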

How the data were processed

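Poly(A) RNA of islets was sequenced in 95 libraries, per the labels' protocols. The authors deposited estimated counts per gene with no normalization, and variance-stabilised values on a scale close to log2 for the same genes. The submitters' processing notes name GRCm38 and DESeq2 without their role. The aligner, counter, use of strand and annotation are not given in the sources used here. Coordinates are those of the authors' table, and exon lengths and 31-base words came from GENCODE M21. Exon lengths count each base in an exon of any transcript of a gene, and levels per kilobase depend on them.

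Counts were rounded, genes with 1 CPM or more in at least 10 libraries were kept (15841 of 20638), and TMM factors (0.46 to 1.29) and gene-wise dispersions were computed in edgeR 4.0.16. DESeq2 1.42.0 gave alternative size factors and dispersions. On simulated counts for 15841 genes, 200 of 200 genes with a coefficient of variation of 80% and 0 of 15641 with 20% were called above 50%. Of the table's sample columns 0 were left out.

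The 10 genes, the pathway and marker lists and libraries 91 to 100 were chosen with earlier results of these data known. Named in the text are the 10 genes, the genes of those lists that each passage turns on, and the genes most alike to each. The split of the H2-K1 to H2-D1 ratio at 1, the smaller stretches (steps over 0.3 on the log2 scale between neighbours) and libraries 29, 35 and 90 were chosen after their values were seen. The low-count filter and TMM were first computed in another order and then changed to follow an earlier analysis of these data, after both results were seen. Sensitivity to normalization, prior count, filter and left-out libraries is given at the end.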

Additional observations from a re-analysis of the deposited data

How the results depend on the processing

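Alternatives were DESeq2 size factors, plain totals, totals without acinar and hormone genes, a prior count of 0.5, no low-count filter, the deposited variance-stabilised values, and sets of libraries left out. Over them 278 values stayed within the spread of their main value, 12 moved and 0 reversed. The 278 include ratios between genes, in which the library size cancels, so a change of size factors or totals could hardly move those. The log2 difference between libraries 91 to 100 and the others moved from 2.78 to 2.105 for Psmb9 and from 5.32 to 3.24 for Nlrc5 with the variance-stabilised values, and the cause was not tested. The count of the 10 genes with a coefficient of variation above 50% moved from 8 to 2 without libraries 91 to 100. The share of all genes above it moved from 24.2% to 36.6% with no low-count filter, which adds low genes. The number of the 10 at least 2-fold higher in the run stayed at 9. Totals without acinar and hormone genes moved the median of all genes by 0.49 on the log2 scale. Median CPM could not be given for the variance-stabilised values, whose scale differs. No paired analysis was possible because the labels give no groups. Depth limits Nlrc5 most. With plain totals the range of Psmb10 from the 10th to the 90th percentile fell from 1.94 to 1.24 on the log2 scale.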

Other observations

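The largest empty stretch in the sorted log2 ratios of H2-K1 to H2-D1, with at least 6 libraries on each side, was 0.36 wide. It took 16.3% of the whole range, less than the 20% set for calling a measure clustered. It lay between library 74, with a ratio of 0.963, and library 8, with 1.23, and left 37 libraries below and 58 above. The 37 were libraries 25 to 32, 59 to 75 and 86 to 100. For the single genes the largest such gap was 15.5% of the range for Psmb8 and 3.52% for Tapbp. Of the 94 pairs of neighbouring library numbers, 15 differed in the log2 ratio by over 0.3, which parts the 95 libraries into 16 stretches. Libraries 94 to 96 had ratios of 0.514 to 0.591, below those of libraries 91 to 93 (0.645 to 0.730) and 97 to 100 (0.701 to 0.747).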
